A study of Homo sapiens with 3 samples.

Results

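The 5 genes described here encode the human enzymes that break down proline (PRODH and ALDH4A1), the enzymes that make it from glutamate (ALDH18A1 and PYCR1) and the enzyme that links proline to ornithine (OAT). They were matched by symbol to Ensembl identifiers, and all 5 were found among the 58735 genes of the deposited table. They were picked because PRODH was much lower with carbon black, so the difference of each of them between carbon black and the control is given as a description only. The 3 RNA-seq libraries came from HaCaT, an immortalised human keratinocyte line, here labelled WT. They are a library labelled control, a CB library from cells given carbon black at 25 µg/mL, and an S1650b library from cells given the particle sample of that name at 50 µg/mL. Exposure lasted 24 h. The particles were dosed in serum-free DMEM after growth with fetal bovine serum, and the labels do not state the medium of the control separately. Each group holds 1 library of 1 cell line, so no difference has a replicate check, no test across libraries was possible and no P value is given.

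Proline is oxidised in mitochondria. PRODH, proline dehydrogenase, turns it into pyrroline-5-carboxylate and hands the electrons to the respiratory chain, and ALDH4A1 then oxidises this intermediate to glutamate. In the opposite direction ALDH18A1 makes pyrroline-5-carboxylate from glutamate, and a reductase such as PYCR1 in mitochondria or PYCR3 in the cytosol reduces it to proline. OAT, ornithine aminotransferase, feeds the same intermediate from ornithine. The synthesis genes are known targets of the amino acid response factor ATF4. Skin uses much proline for collagen in the dermis and for the proline-rich envelope proteins of keratinocytes.

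The libraries held 20417744 to 20946139 counts, and 14709 genes reached a CPM (total-scaled count) of 1 in at least 1 library. Folds are ratios of CPM scaled by TMM, a factor that corrects for the composition of each library. Each carries an exact 95% interval that covers counting error only. Reads copied by PCR are not separate molecules, so real errors can be wider. The rule used for calling a gene asks for a fold of 1.5 or more in either direction, with an interval that excludes 1. The keratinocyte label was checked with 13 markers, all of which were measured and had counts in every library. Their summed level was 17320 scaled CPM in the control, 15270 with CB and 8662 with S1650b. KRT5 and KRT14, which hold most of the control sum, were lower in S1650b. Of the 13, 1 was called higher in S1650b (DSG3, fold 1.75) and 4 lower, beside 22.0% and 19.4% of all genes. KRT17 had a fold of 1.34 there. Markers of fibroblasts summed to 182.5, 78.89 and 28.51 scaled CPM, with 4 of 8 reaching 1 CPM. FBLN1 (89.3 in the control), DCN (54.2) and COL3A1 (32.4) were lower in both particle libraries, and COL1A1 stood at 6.10, 5.27 and 6.98. The fibroblast markers LUM (9, 3 and 6 counts) and THY1 (0, 1 and 0 counts) were near 0, and COL1A2 and PDGFRA had 0 counts in the control. Endothelial markers summed to 58.35, 32.53 and 48.03, mostly CDH5, melanocyte markers to 9.76, 8.208 and 9.49, and leukocyte markers to 2.135, 1.343 and 1.209.

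PRODH (ENSG00000100033, chromosome 22, 18912777 to 18936553, minus strand, GRCh38, protein-coding) has a pseudogene, PRODHLP, on the same chromosome (20299760 to 20313216). A read from a shared stretch could be counted for either. The longest coding PRODH transcript of GENCODE 29 has 2462 bases and aligned to the annotated PRODHLP transcript over 988 alignment columns at 93.219% identity and over another 274 at 93.431%. The first 90 bases of the longer alignment lie in the coding sequence (transcript bases 1082 to 1171). They are more alike than that alignment as a whole, which has 42 mismatches and 25 gap columns. Capitals mark the 2 bases that differ.
PRODH: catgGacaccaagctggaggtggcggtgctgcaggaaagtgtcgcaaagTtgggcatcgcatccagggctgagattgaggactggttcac
PRODHLP: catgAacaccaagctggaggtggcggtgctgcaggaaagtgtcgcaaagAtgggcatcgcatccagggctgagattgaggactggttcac
The longest run of identical bases in the longer alignment was 73. PRODH had 0 of 2388 stretches of 75 bases in common with any other annotated transcript on the same strand.

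PRODH had 148 counts in the control library, 7 with CB and 11 with S1650b. The control library was therefore the high one, and both particle libraries were close to each other and low. PRODH reached 1 CPM in the control alone, so it was measured through the library where it was high. PRODHLP had 9, 0 and 8 counts, too few to reach 1 CPM in any library. On the scaled CPM scale PRODH stood at 7.52, 0.348 and 0.492. PRODH was 21.6-fold lower in CB than in the control (10.2 to 54.7), the 8th lowest log2 fold among the 14709 genes. In S1650b it was 15.3-fold lower than in the control (8.29 to 31.3), the 19th lowest. Both comparisons use the same control library, so a high PRODH count in that library would lower both. The summed fibroblast markers were also highest in the control, through FBLN1, DCN and COL3A1, while COL1A1 was not highest there. The part of these markers in the result was not tested. In a bulk library fewer cells of a type and less RNA per cell cannot be told apart.

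The particle libraries were also compared with each other, which leaves the control out. PRODH then had 11 counts against 7, a fold of 1.41 with an interval from 0.501 to 4.30. A difference between the particle libraries was not detectable at this depth, and the interval does not show that the particles act alike. CB was given at 25 µg/mL and S1650b at 50, so particle and dose cannot be told apart in any comparison of S1650b with CB. With the counts of PRODHLP added to those of PRODH, the log2 fold was −4.52 for CB and −3.23 for S1650b against the control, beside −4.43 and −3.93 without them. Exons of DGCR6 overlap 675 bases of PRODH exons on the opposite strand, and DGCR6 had 4, 0 and 0 counts.

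**Figure D1:**
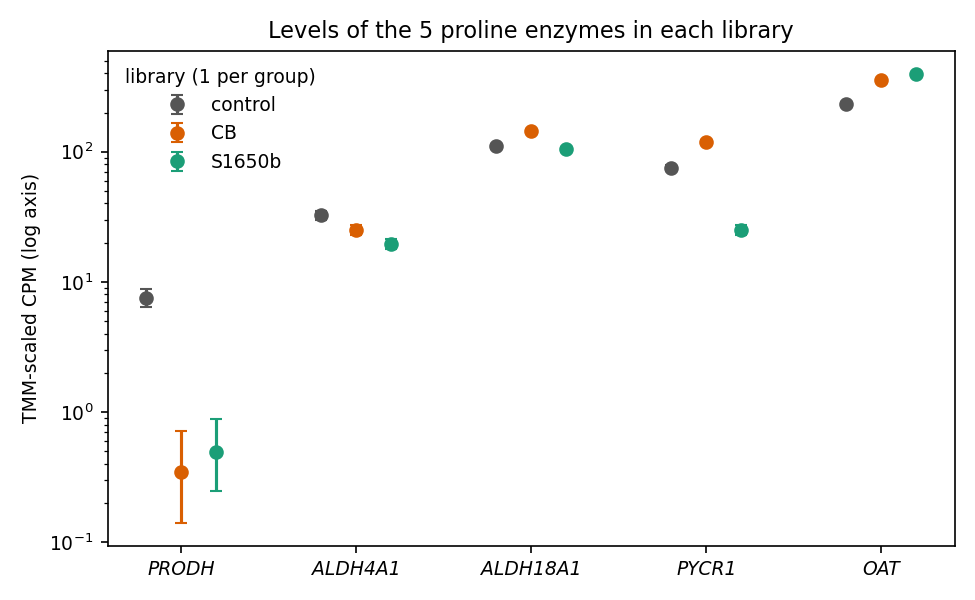
TMM-scaled CPM (log axis) of the 5 genes in the control, CB and S1650b libraries, 1 point per library with its 95% counting interval. PRODH falls from 7.52 in the control to 0.348 and 0.492, while PYCR1 is highest in CB (118.8) and lowest in S1650b (24.98).

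The genes beside PRODH differed far less than it did. PRODH was picked for its low value with CB and they were not, so nothing is read from this contrast. The 7 other genes measured within 250 kb of PRODH, counted between the nearest ends of the genes, all lie upstream of its start. In CB DGCR11 was called lower (38 counts against 61, fold 0.610, 0.396 to 0.929) and the other 6 were in neither direction. Over all genes tested 4.70% were higher and 10.7% lower in CB. DGCR2, an adhesion receptor gene, had 4664, 4097 and 5195 counts, and SLC25A1, the mitochondrial citrate carrier, had 3692, 4163 and 3534. In S1650b the nearest measured gene, the noncoding DGCR5, was higher (35 counts against 10, fold 3.08, 1.49 to 6.98), though it reached 1 CPM in S1650b alone and so was measured through that library. Also higher was CLTCL1, a clathrin heavy chain gene (226 counts against 121, fold 1.64). DGCR11 was lower there too, with the same 38 counts against the same control library. The shares over all genes in S1650b were 22.0% higher and 19.4% lower.

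**Figure D2:**
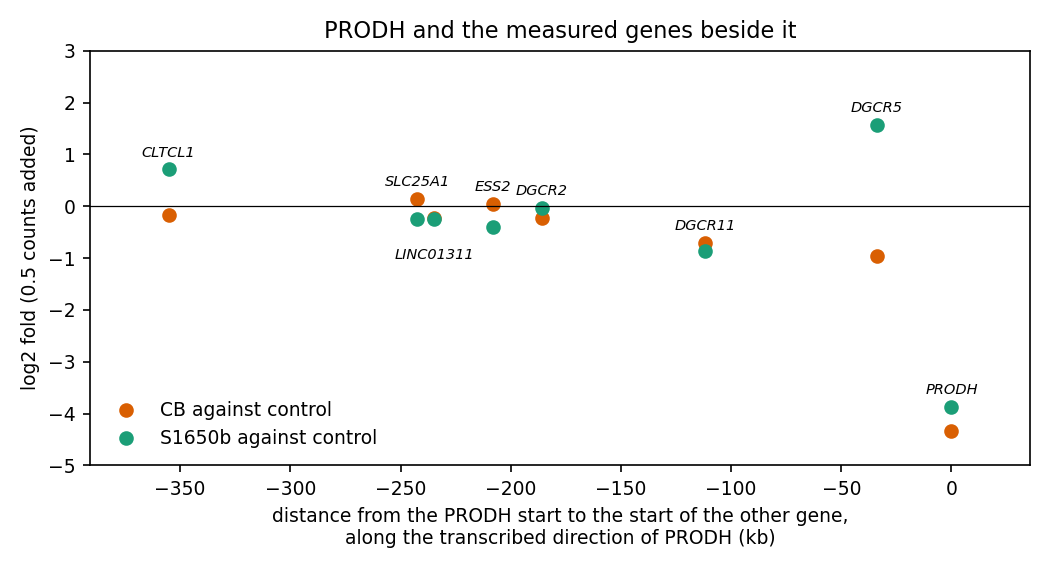
Log2 folds against the control (0.5 counts added, vertical axis) of PRODH and the 7 measured genes beside it, by distance of their starts from that of PRODH in kb, for CB and S1650b. PRODH lies at −4.34 and −3.87, and the 7 others lie between −0.96 and 1.57.

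ALDH4A1 (ENSG00000159423, chromosome 1, 18871430 to 18902781, minus strand) had 638 control counts, 504 with CB and 436 with S1650b. The control was again the highest library, over a far smaller range than for PRODH. In CB the fold was 0.773 (0.686 to 0.870), short of the rule. In S1650b ALDH4A1 was 1.66-fold lower than in the control (1.47 to 1.88). That call ended with scaling by total counts (log2 fold −0.53, beside −0.73) and with the trends with gene length and GC content removed (−0.25). A readthrough gene, AL080251.1, covers 41.12% of ALDH4A1 exons on the same strand and had 0 counts in each library.

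PYCR1 (ENSG00000183010, chromosome 17, 81932384 to 81942412, minus strand), the mitochondrial reductase that completes proline synthesis, had 1470 control counts, 2388 with CB and 558 with S1650b. It was the one member called in opposite directions in the particle libraries. In CB it was 1.59-fold higher (1.49 to 1.698), and in S1650b it was 2.99-fold lower (2.71 to 3.30). Compared directly, PYCR1 was 4.76-fold lower in S1650b than in CB (4.34 to 5.22), the 179th lowest of 14709 log2 folds. Under the alternative scalings, trend removals and added counts this log2 fold ran from −2.31 to −1.79, beside −2.25. Exons of other genes overlap 29.73% of PYCR1 exons. The genes concerned, MYADML2 and AC145207.4, had 0 or 1 count in each library. How reads on shared bases were counted is not known, so the part of this overlap was not tested.

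ALDH18A1 (ENSG00000059573, chromosome 10, 95605929 to 95656706, minus strand), which starts proline synthesis from glutamate, had 2160 control counts, 2885 with CB and 2327 with S1650b. Its fold was 1.31 in CB (1.24 to 1.38) and 0.949 in S1650b (0.894 to 1.01), so it passed the rule in neither comparison. The S1650b value also turned above 1 with scaling by total counts (log2 fold 0.12) and with the length trend (0.05) or both trends removed (0.12). S1650b against CB gave 0.726 (0.687 to 0.767), again short of the rule.

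Because PYCR1 and ALDH18A1 are known ATF4 targets, the bases before the start of ALDH18A1 were read for motifs. Of the members, ALDH4A1, ALDH18A1 and OAT matched the promoter table, which comes from RefSeq (GRCh38.p14). Searched on both strands in the 250 bases before the start were the C/EBP-ATF element TGATGNAA, the cyclic AMP response element core TGACGT, the E-box CACGTG bound by MYC and its relatives, and the AP-1 site TGANTCA. These occur in 3.14%, 7.1%, 6.34% and 6.57% of the 35116 promoters of the table. The stretch of ALDH18A1 (chr10:95656712-95656961, minus strand) is shown since it was the one of the 3 with a match, and capitals mark the matches.
ALDH18A1: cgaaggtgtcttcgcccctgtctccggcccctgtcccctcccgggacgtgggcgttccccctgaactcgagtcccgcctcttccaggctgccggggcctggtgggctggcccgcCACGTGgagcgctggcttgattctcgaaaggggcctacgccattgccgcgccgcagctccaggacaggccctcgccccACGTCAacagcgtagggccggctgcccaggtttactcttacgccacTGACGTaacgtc
It holds the E-box 136 to 131 bases before the start, the TGACGT core on the opposite strand 58 to 53 bases before it and the same core as written 12 to 7 bases before it. Neither the C/EBP-ATF element nor the AP-1 site had a match in the 250 bases before any of the 3 genes. A match is a description of letters, not of binding, and the motifs were chosen with the results known.

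OAT (ENSG00000065154, chromosome 10, 124397303 to 124418976, minus strand) had the most counts of the 5, with 4580 control counts, 7086 with CB and 8764 with S1650b. Both particle libraries lay above the control. The fold was 1.51 in CB (1.46 to 1.57), just inside the rule, and 1.69 in S1650b (1.63 to 1.75). The CB call ended with upper-quartile scaling (log2 fold 0.56, beside 0.60) and with both trends removed (0.55). Between the particle libraries the fold was 1.11 (1.08 to 1.15). Of the 75-base stretches of the longest coding OAT transcript, 1.773% also occur in other annotated transcripts (AL606490.2 and AL450023.1).

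**Figure D3:**
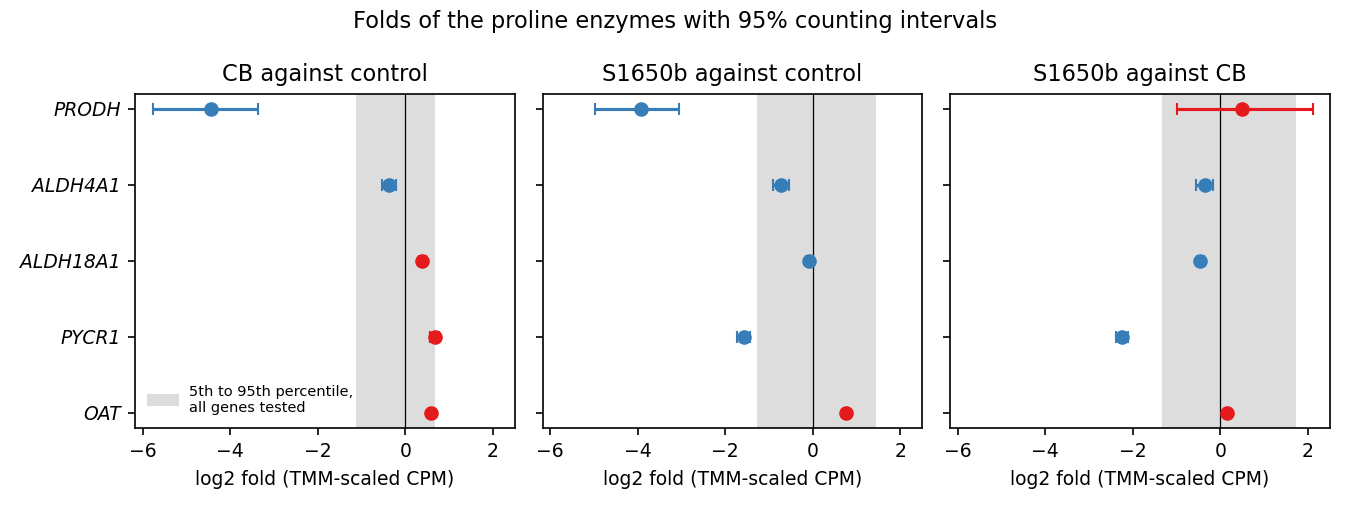
Log2 folds of TMM-scaled CPM (horizontal axis) of the 5 genes in the 3 comparisons, with 95% counting intervals, blue below 0 and red above. The grey band spans the 5th to 95th percentile of the 14709 genes, and PRODH lies far below it in both comparisons with the control and inside it for S1650b against CB.

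Counted over the 5 members, 2 were higher (PYCR1 and OAT) and 1 lower (PRODH) in CB, where 4.70% of all genes tested were higher and 10.7% lower. The members were picked on this comparison, so nothing is read from these counts. In S1650b 1 member was higher (OAT) and 3 were lower (PRODH, ALDH4A1 and PYCR1), where 22.0% of all genes were higher and 19.4% lower. In S1650b against CB 0 members were higher and 1 was lower (PYCR1), beside 26.3% and 20.6% of all genes. Scaling by total counts moves the median log2 fold of all genes by 0.20 in S1650b against the control, and the calls there from 3236 higher and 2855 lower to 4289 and 1737. In S1650b against CB it moves them from 3870 and 3024 to 4880 and 2054. Folds in S1650b also ran with exon length and GC content. The median log2 fold in S1650b against the control was −0.29 in the eighth of genes with the shortest exons and 0.48 in the longest, and 0.60 at the lowest GC content and −0.43 at the highest. PYCR1 (61.76% GC) and ALDH4A1 (60.45%) are GC-rich, OAT is not (41.16%), and PRODH has long exons (8776 bases in all). With both trends removed the log2 fold of PYCR1 in S1650b against the control was −1.01 beside −1.58, and that of PRODH was −3.93 in both.

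Levels of different genes were compared per length, with the authors' FPKM. In the control the order was OAT (68.2), ALDH18A1 (28.9), PYCR1 (25.7), ALDH4A1 (8.73) and PRODH (0.851). In CB PYCR1 (43.0) and ALDH18A1 (39.8) changed places between OAT (109) and ALDH4A1 (7.09), while PRODH stood at 0.0414. In S1650b the order was that of the control, with OAT at 115, ALDH18A1 at 27.4, PYCR1 at 8.58, ALDH4A1 at 5.24 and PRODH at 0.0556. PRODH was thus the least abundant of the 5 in every library and OAT the most abundant. Whether neighbours such as PYCR1 and ALDH18A1 in the control or CB differ beyond the spread between cultures cannot be said from 1 library each. The order of such neighbours also depends on the gene length used. Summed exons held 2886 bases for PYCR1 and 3766 for ALDH18A1, and their longest coding transcripts 1904 and 3359. The FPKM of ALDH18A1 was 3.32 times that of ALDH4A1 in the control, 5.61 times with CB and 5.23 times with S1650b.

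PYCR3, a cytosolic enzyme that catalyses the same step as PYCR1, had 1345, 1825 and 747 counts in the control, CB and S1650b. Like PYCR1 it was lowest with S1650b, with a fold of 1.33 in CB, short of the rule, and a 2.04-fold lower level in S1650b (1.87 to 2.24). The log2 fold of PYCR3 in S1650b was −1.03, and −0.50, short of the rule, with the length and GC trends removed. Its FPKM was 20.9 in the control, 29.2 with CB and 10.2 with S1650b. By the authors' FPKM PYCR3 thus stood below PYCR1 in the control and CB, and above it in S1650b, where PYCR1 was at 8.58. PRODH2, a hydroxyproline dehydrogenase related to PRODH, had 0 counts in all 3 libraries.

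The 7 listed enzymes beside the members, of proline, hydroxyproline and aspartate metabolism, had 6 measured genes, of which 0 were higher and 1 lower in CB and 0 higher and 4 lower in S1650b. Counts of this and the next lists stand beside 4.70% of all genes higher and 10.7% lower in CB, and 22.0% and 19.4% in S1650b. The median log2 fold of this list was 0.12 in CB and −0.60 in S1650b, beside −0.01 and −0.04 over all genes. Besides PYCR3, the lower genes in S1650b were GOT1 and GOT2, the cytosolic and mitochondrial aspartate aminotransferases (1.65-fold and 1.52-fold), and GRHPR, which reduces glyoxylate (1.52-fold). HOGA1, of hydroxyproline breakdown, was the lower gene in CB, with 31 counts against 50, a call that ended with DESeq2 size factors and with FPKM. The 4 lower genes in S1650b became 1 (PYCR3) with total counts and 0 with both trends removed.

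Of 19 enzymes that supply or use glutamate, arginine and ornithine, 16 were measured, with 4 higher and 4 lower in CB and 1 higher and 5 lower in S1650b (medians 0.11 and −0.46). ODC1, which turns ornithine into the polyamine putrescine and so competes with OAT, had 1625, 3831 and 1181 counts. It was 2.31-fold higher in CB (2.18 to 2.45) and 1.56-fold lower in S1650b (1.45 to 1.69). SRM, spermidine synthase, ran the same way (1.55-fold higher and 1.86-fold lower). With both trends removed the S1650b log2 folds of ODC1 (−0.27) and SRM (−0.29) were short of the rule, and ODC1 was so with total counts too (−0.44).

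GLUL, glutamine synthetase, had 15751, 6319 and 13160 counts and was 2.55-fold lower in CB, with a fold of 0.736 in S1650b. ASS1, argininosuccinate synthase of arginine synthesis, had 8688, 4498 and 3700 counts and was 1.97-fold lower in CB and 2.67-fold lower in S1650b. NAGS, which makes N-acetylglutamate, was lower in both on 60, 26 and 19 counts, under 1 CPM in S1650b. Of the 4 higher calls in CB, ARG2 reached 1 CPM in CB alone. Among the 5 lower calls in S1650b, GLUD2 (25, 18 and 12 counts) reached 1 CPM in the control alone. GLUD2 was thus measured through the library where it was high.

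Of 18 carriers of proline, glutamate, glutamine, arginine and ornithine, 13 were measured, with 3 higher and 0 lower in CB and 4 higher and 1 lower in S1650b (medians 0.39 and 0.28). SLC38A2, which imports small neutral amino acids including proline, had 5296, 5264 and 10517 counts, a fold of 0.973 in CB and a 1.75-fold higher level in S1650b (1.69 to 1.81). SLC38A1, its relative for glutamine, was 1.77-fold higher in S1650b with a fold of 1.38 in CB. SLC1A4, a carrier of small neutral amino acids, was 1.86-fold higher in CB with a fold of 1.07 in S1650b. SLC25A15, the mitochondrial ornithine carrier, was 1.61-fold higher in CB and had a fold of 0.693 in S1650b. SLC25A22, a mitochondrial glutamate carrier, was 1.62-fold lower in S1650b. None of SLC38A2 (0.24), SLC38A1 (0.09) and SLC25A22 (−0.35) passed the rule in S1650b with both trends removed, by the log2 folds given, and SLC25A22 did not with total counts (−0.49).

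Of 19 genes that release, load or hydroxylate proline, 14 were measured, with 0 higher and 1 lower in CB and 4 higher and 1 lower in S1650b (medians −0.01 and 0.05). EPRS1, which loads glutamate and proline onto their tRNAs, had 1118, 1598 and 3238 counts, with a fold of 1.40 in CB and a 2.55-fold higher level in S1650b (2.38 to 2.73). DPP8, a peptidase that cuts after proline, was 2.56-fold higher in S1650b, and P4HA1, a catalytic subunit of collagen prolyl 4-hydroxylase, 1.77-fold higher. P4HB, the other subunit of that enzyme and a protein disulfide isomerase, was 1.56-fold lower there. With both trends removed EPRS1 (log2 fold 1.06) and P4HA1 (0.69) stayed past the rule and DPP8 (0.53) and P4HB (−0.35) did not, and P4HB did not with total counts (−0.44).

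Of the 19 listed genes of the ATF4 response, 17 were measured, with 7 higher and 0 lower in CB and 3 higher and 4 lower in S1650b (medians 0.55 and −0.36). The S1650b counts are near the shares over all genes, 22.0% and 19.4%, and VLDLR, 1 of the 3 higher, reached 1 CPM in S1650b alone. ATF4 itself had 7895, 13213 and 6963 counts, 1.64-fold higher in CB (1.59 to 1.68) with a fold of 0.777 in S1650b. PSAT1, of serine synthesis, was 3.18-fold higher in CB and had a fold of 0.895 in S1650b. PHGDH, the first enzyme of serine synthesis, had a fold of 1.38 in CB and was 2.85-fold lower in S1650b. CHAC1, which cleaves glutathione, was higher in both, on 28, 216 and 56 counts, and SLC7A11, the cystine importer, had 413, 887 and 4708 counts. In S1650b against CB 2 of the 17 were higher and 11 lower, beside 26.3% and 20.6% of all genes. ATF4, PSAT1 and PHGDH were among the lower ones. The list's median in S1650b against the control turned from −0.36 to 0.03 with both trends removed, and 2 of its 4 lower calls were left. The list was chosen with earlier results of these data known.

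Of 6 factors reported to act on PRODH or PYCR1, 0 were higher and 1 lower in CB and 3 higher and 2 lower in S1650b (medians −0.05 and 0.11). MYC, known to repress PRODH, had 6665, 8181 and 5119 counts, with folds of 1.20 and 0.676, neither past the rule. PPARG, known to switch PRODH on, had 658, 455 and 485 counts, with a fold of 0.677 in CB and a 1.54-fold lower level in S1650b. RXRA, its partner receptor, was lower in both (1.57-fold and 1.87-fold). In CB RXRA fell just short of the rule with both trends removed (log2 fold −0.58), where PPARG passed it (−0.61), and with FPKM 0 of the 6 were lower in CB. FOXO3, FOXO1 and HIF1A were higher in S1650b (1.99-fold, 1.99-fold and 1.71-fold), and their folds in CB were 0.903, 1.04 and 1.20. With both trends removed HIF1A (log2 fold 0.31) was short of the rule in S1650b, and with total counts PPARG was (−0.42).

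**Figure D4:**
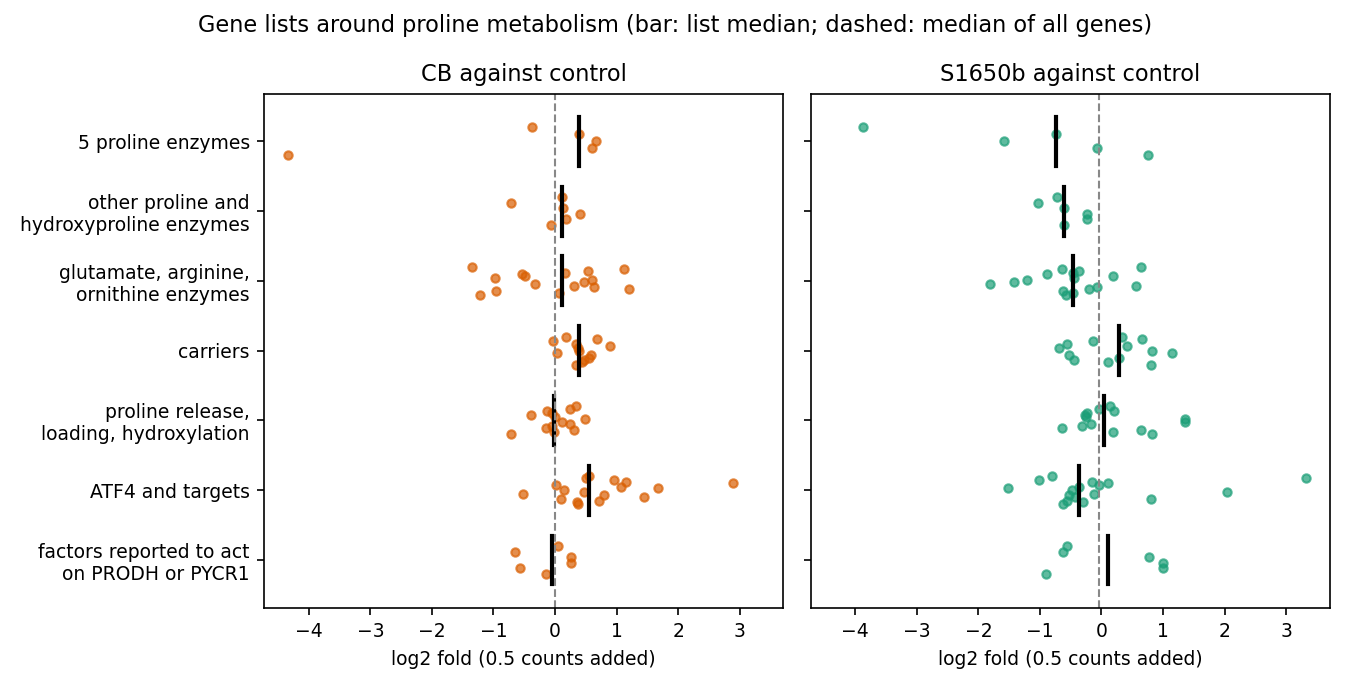
Log2 folds against the control (0.5 counts added) of every measured gene in the member list and the 6 lists around it, CB on the left and S1650b on the right, 1 point per gene. Black bars are list medians and the dashed line is the median of all 14709 genes. The ATF4 list has its median at 0.55 in CB and −0.36 in S1650b, the latter at 0.03 with the length and GC trends removed.

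The genes whose pair of log2 folds against the control lay nearest to that of PRODH, among 10912 protein-coding genes with at least 50 control counts, were KRT1, ALPG, ALDH1A1, BGN, DCN and SCGB1A1. Likeness was the Euclidean distance over 3 libraries, and since PRODH and these genes were all high in the one control library, it describes that library as much as the particles. KRT1, a keratin of differentiating keratinocytes, was nearest, at a distance of 0.51, with 77, 5 and 5 counts. ALPG, an alkaline phosphatase, had 788, 103 and 99 counts at a distance of 1.55.

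DCN, a matrix proteoglycan gene and one of the fibroblast markers, had 1067, 153 and 41 counts at a distance of 1.81, and BGN, its relative, had 56, 4 and 1. SCGB1A1, a secreted protein of airway cells, had 588, 123 and 42 counts. All 6 genes were high in the control and low in both particle libraries, as PRODH was. They were picked for being nearest to it, so nothing is read from this likeness. KRT1, BGN and ALDH1A1 reached 1 CPM in the control alone. Nearest to PYCR1 were TUBB, a tubulin gene (distance 0.06), TCOF1, a nucleolar protein gene (0.08), and CDC25A, a cell cycle phosphatase gene (0.09). Nearest to ALDH18A1 were ORAI2, FHOD1 and GNB1L, each at a distance of at most 0.0096.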

How the data were processed

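The deposited table holds raw counts per Ensembl gene, which are whole numbers, and a separate table holds FPKM computed by the authors. The labels' protocols name Trizol for RNA and a NEBNext Ultra library kit. CASAVA 1.7 and 2 mouse builds (mm8, mm9) appear in the submitters' processing notes, although the identifiers are human. Aligner, counter, strand setting and human build: not given in the sources used here. Positions and exon lengths came from GENCODE 29 (GRCh38), which holds all 58735 identifiers, and symbols for 58207 from a gene name table.

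TMM factors (edgeR 4.0.16, R 4.3.3) over the genes kept (raw CPM of 1 or more in any library) were 0.952, 0.960 and 1.09 for control, CB and S1650b. Intervals are exact conditional binomial (Clopper-Pearson). Before log2, 0.5 counts were added for list medians, ranks, distances and the plots of lists and neighbours. Sequences were aligned with blastn 2.17.0. The fold script was tested on simulated data with counting error only, which does not cover the spread between cultures. Alternatives were total counts, DESeq2 1.42.0 size factors, upper quartile, deposited FPKM with 0.1 added (no interval), 5 counts added, no filter, 5 CPM, a fold of 2, protein-coding genes, PRODHLP summed, and removal of the lowess trend (span 30%) with length, then GC.

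The members, lists and tests were chosen with earlier results of these data known. Named were the members, up to 4 called genes of each list ranked by the interval end nearest to 1, PYCR3, PRODH2, ATF4, MYC and PPARG, and the nearest genes by distance. Some genes and 1 list that this rule covers are not reported here. HOGA1, SRM, SLC25A15, ARG2, GLUD2, ASNS, VLDLR, marker genes, the genes beside PRODH and the overlapping genes were named outside this rule, after their values were seen.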

Additional observations from a re-analysis of the deposited data

How the results depend on the processing

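No paired analysis was possible because each group has 1 library, and for the same reason no library could be left out. PRODH kept its direction against the control under every scaling, trend removal, added count and the sum with PRODHLP, with log2 folds of −4.52 to −2.75 in CB and −4.26 to −2.61 in S1650b. The smallest came from deposited FPKM with 0.1 added (−2.75 and −2.61), where the addition exceeds the particle libraries' FPKM. In CB the 2 higher members became 1 with upper-quartile scaling and 1 with length and GC trends removed, and 0 at a fold of 2. At a fold of 2 the 1 higher member in S1650b became 0. All genes called in CB (691 higher, 1568 lower) became 429 and 852 at 5 CPM, and 248 and 823 at a fold of 2. In S1650b against the control (3236 and 2855) a fold of 2 gave 1787 and 1156, and total counts gave 1737 lower. In S1650b against CB (3870 and 3024) a fold of 2 gave 2371 and 1391. PYCR1 stayed higher in CB (0.63 to 0.74) and lower in S1650b (−1.57 to −1.01). A count was taken as moved beyond 1.5 times and a member's fold outside its 95% interval. By that measure 15 of the recomputed values of PRODH and of the counts of members and all genes moved and 111 did not. For the other members and lists 102 moved and 276 did not, and no called member changed sign. PRODH rests on 7 and 11 counts in the particle libraries, so its size is loosely set.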

Other observations

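ASNS, asparagine synthetase and a known ATF4 target, had 4 control counts, 16 with CB and 15 with S1650b, and did not reach 1 CPM in any library. ARG2, the mitochondrial arginase that makes ornithine, had 11, 25 and 8 counts and was called higher in CB (fold 2.22, 1.06 to 5.01), the one library where it reached 1 CPM.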
